A study of Apis mellifera carnica with 38 samples.

Results

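The gene described here encodes the alpha subunit of the inhibitory heterotrimeric G protein of the honey bee (*Gαi*, *LOC411704*). It is 1 of the 12332 genes with read counts in this study, and it was selected on its measured levels, as a gene that was higher in the brains and the fat bodies of queens injected with seminal fluid or semen than in queens injected with diluent. The comparisons of those queens are therefore described without a test, and the tests are kept for comparisons that did not choose the gene.

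Heterotrimeric G proteins carry signals from receptors in the cell membrane to enzymes inside the cell. When a receptor is activated, the alpha subunit exchanges GDP for GTP and parts from its beta and gamma partners, and an alpha subunit of the Gi class then lowers cyclic AMP by inhibiting adenylate cyclase. In *Drosophila melanogaster*, the sex peptide receptor, which responds to a seminal fluid peptide in mated females, acts through alpha subunits of the Gi and Go classes.

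All samples came from unmated *Apis mellifera carnica* queens, which were reared from larvae in queenless colonies and kept as adults in mininuclei. The larvae came from a colony headed by a queen inseminated by a single drone, so the queens were closely related. Virgin queens (V) were left untreated, and the other queens received an abdominal injection of Hayes solution (HS, the salt solution used to dilute semen), of seminal fluid (SF, the supernatant of centrifuged semen, which also holds diluent) or of whole semen (SE). Injections were given about a week after emergence, and tissues were taken about a week later. Brains and fat bodies were sequenced in 38 libraries from 20 queens, 18 of which gave both tissues. Fat bodies came from 5 queens per treatment (n = 20 libraries) and brains from 5 V, 5 HS, 3 SF and 5 SE queens (n = 18 libraries). A fat body sample was the eviscerated abdominal cuticle with the fat body that lines it, so it also held other cells of the body wall.

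The libraries held between 4832119 and 29963718 reads counted on genes, and between 224 and 1077 of these fell on *LOC411704*. The share of reads that found no place on the bee genome (unaligned reads) was 3.64% to 5.13% in V fat bodies and 49.3% to 71.6% in injected fat bodies, so this share and injection cannot be told apart in fat bodies. In brains it was 4.05% to 6.08% in 5 libraries (the V brains C64, C68 and C77, the SF brain SP16 and the SE brain S83) and 22.1% to 53.6% in the other 13. The study traced many of the redundant reads to Deformed Wing Virus (DWV) and left SP16 and S83 out of its brain comparisons. Of 13 neuronal markers (synaptic genes and nicotinic acetylcholine receptor subunits), 11 were higher in brains than in fat bodies of V queens and 2 (*nAChRa9* and *nAChRb2*) were lower, beside 42.5% of all genes called higher and 38.6% lower. Of 5 fat body markers (vitellogenin and hexamerins), 4 were lower in brains and *Hex110* was higher. The 7 troponin genes, markers of muscle, summed to 2100.4 to 3633 CPM (read counts scaled to a common library size, with TMM over all 38 libraries) in fat bodies and to 20.5 to 646.7 CPM in brains, with *TpnCIIb* and *TpnT* at 0 reads in both. Of the 2 germ line markers on the list, *vas* had 0 reads in every library and *nanos* had group means of 19.6 to 26.5 CPM in fat bodies and 61.0 to 71.8 CPM in brains.

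The gene lies on chromosome 1 at 14882852 to 14885879 of the Amel_HAv3.1 assembly, a span of 3028 bases. In the annotation GeneID 411704's span holds 1 transcript, and no other annotated gene overlaps it. Reads were counted over whole gene spans, so introns and untranslated regions counted as well, and whether strand was used is not given in the sources used here. The nearest gene on the side of the lower coordinates, *LOC100577521*, ends 2369 bases away and had group means of 0.32 to 0.64 CPM. The nearest on the other side, *LOC411705*, begins 1069 bases away. It did not pass the test in any treatment comparison of either tissue (its log2 fold changes were 0.20, SE 0.11, for SF and 0.07, SE 0.11, for SE as compared to HS fat bodies), and it was higher in brains than in fat bodies of V queens (log2 fold change 2.05, SE 0.09).

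In fat bodies, *LOC411704* was low in V and HS queens and high in SF and SE queens. The V libraries C20, C49, C64, C68 and C77 held 33.8, 30.3, 32.1, 31.8 and 23.9 CPM (30.4 ± 3.81, SD, n = 5). The HS libraries H51, H53, H73, H74 and H75 held 28.7, 32.4, 29.5, 57.1 and 31.3 CPM (35.8 ± 12.0, SD, n = 5). Of these 10 libraries only H74 was above 33.8 CPM, and the other 4 HS libraries averaged 30.5 ± 1.68 CPM (SD, n = 4).

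The SF libraries SP1, SP16, SP35, SP76 and SP79 held 72.1, 93.0, 73.9, 67.0 and 70.3 CPM (75.3 ± 10.2, SD, n = 5). The SE libraries S24, S27, S29, S38 and S83 held 70.7, 81.1, 54.0, 47.4 and 55.2 CPM (61.7 ± 13.8, SD, n = 5). Every SF library was above every HS and V library. Every SE library was above every V library, and 3 of the 5 SE libraries (S29, S38 and S83) lay below the HS library H74.

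**Figure D1:**
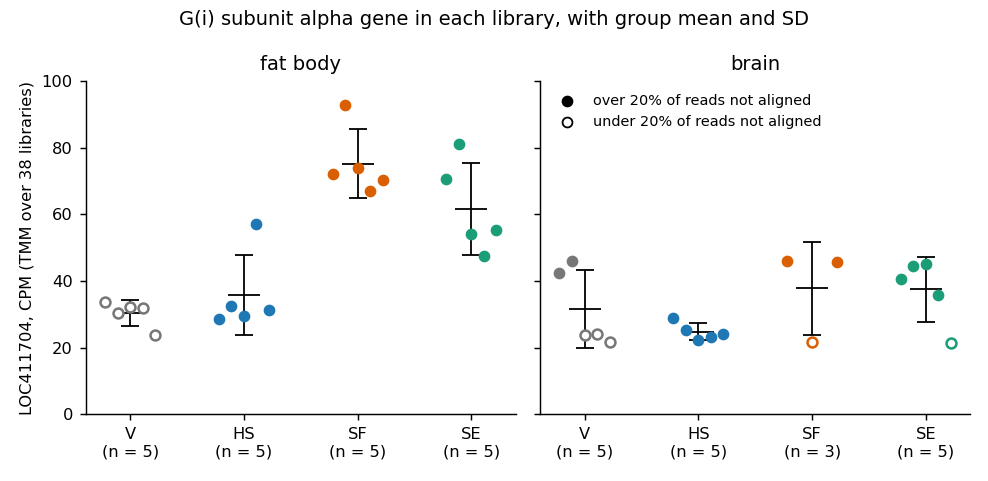
CPM of *LOC411704* (vertical axis, from 0) in each fat body and brain library by treatment, with the group mean and SD in black. Filled points had over 20% unaligned reads and open points fewer. SF and SE fat bodies sat above all V fat bodies, and the brains split into values up to 28.99 CPM and values from 35.9 CPM.

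The fold changes that chose the gene are given as a description. In fat bodies the log2 fold change was 1.07 (SE 0.19, 2.104-fold) for SF and 0.79 (SE 0.19, 1.72-fold) for SE as compared to HS queens. The share of all genes called in these 2 comparisons (Benjamini-Hochberg adjusted p under 0.05, edgeR quasi-likelihood test) was 1.66% and 3.69%. Without the HS library H74 the values were 1.31 for SF and 1.02 for SE, the highest of the leave-one-out fits, whose lowest values were 0.99 and 0.66.

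Virgin fat bodies took no part in choosing the gene, although the injected libraries did. *LOC411704* was higher in SF than in V fat bodies by 1.32 on the log2 scale (SE 0.17, 2.50-fold, adjusted p = 1.98e-05, edgeR). It was higher in SE than in V fat bodies by 1.03 (SE 0.18, 2.05-fold, adjusted p = 0.000199). Neither pair of groups overlapped, and the exact two-sided permutation test gave p = 0.00794 for each (n = 5 against 5), the smallest that this design allows. The share of all genes with no overlap is not given here. As the SF and SE libraries took part in choosing the gene, this lack of overlap follows in part from the choice. Both differences were called in all 10 leave-one-out fits (1.24 to 1.36 for SF and 0.90 to 1.12 for SE).

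Many genes differed in these comparisons, with 28.1% of tested genes called for SF and 33.4% for SE against V queens, and by p *LOC411704* ranked 103 of 8403 genes in the first and 347 in the second. HS fat bodies did not pass the test against V (log2 fold change 0.25, SE 0.17, 95% interval −0.11 to 0.61, adjusted p = 0.425, with 7.63% of genes called). V fat bodies also differed from all injected ones in the share of unaligned reads. With that share as a covariate the log2 fold changes against V were 0.87 for SF (adjusted p = 0.866) and 0.56 for SE (adjusted p = 0.939). Within the 15 injected libraries Pearson's r between the level of *LOC411704* and that share was 0.0962, as a description. In bulk tissue, fewer cells that express a gene and less of its RNA per cell cannot be told apart.

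Markers of other cells were compared in the same fits. *PPO*, the phenoloxidase gene of hemocytes and the only hemocyte marker on the list, was higher in SF than in V fat bodies (log2 fold change 2.103, SE 0.59, adjusted p = 0.0116), ranging from 34.2 to 595.3 CPM in SF and from 26.8 to 89.8 CPM in V libraries. It did not pass the test in SE queens (0.16, SE 0.58, adjusted p = 0.853), whose libraries ranged from 28.1 to 129 CPM. Of 10 neuronal markers tested, 4 were lower in SF and 5 in SE than in V fat bodies and none was higher, beside 14.5% and 17.1% of all genes called lower and 13.6% and 16.3% higher. The sum over all 13 ranged from 1017 to 1521 CPM in SF, 929 to 1196 CPM in SE and 1105 to 1350 CPM in V, and *nAChRa9* and *nAChRb2*, both lower in brains, made up 567 to 1136, 570 to 704 and 805 to 939 CPM of it. The other 11 summed to 384 to 508 CPM in SF, 360 to 492 CPM in SE and 296 to 429 CPM in V. Of 4 muscle markers tested, 1 was lower in SF (*TpnI*) and 2 in SE (*TpnI* and *TpnCI*). Of 4 fat body markers tested, *Vg* was lower and *HEX70b* and *Hex110* higher in both, and *Hex70a* was higher in SE. The part of these changes in the level of *LOC411704* was not tested.

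SF and SE queens were also compared directly. Seminal fluid was spun from semen diluted with Hayes solution, so the injections can differ in diluent and in seminal fluid dose as well as in sperm. These cannot be told apart here. In fat bodies SE was lower than SF by 0.29 on the log2 scale (SE 0.18, 95% interval −0.68 to 0.10), which did not pass the test (adjusted p = 0.899, exact permutation p = 0.103), and 0% of genes were called (438 had an unadjusted p under 0.05). In brains, over the 11 injected libraries that the study kept, the difference was −0.16 (SE 0.11, 95% interval −0.40 to 0.09, adjusted p = 0.454), with 2.24% of genes called. In these brains the fat body marker *Vg* was also lower in SE than in SF queens (−3.46, SE 0.68, adjusted p = 0.0442), and so was the muscle marker *TpnCIIa* (−1.92, SE 0.28, adjusted p = 0.0192). The 5 fat body markers summed to 329 to 1136 CPM in the 4 SE brains and to 8155 and 9039 CPM in the 2 SF brains, and the troponin genes to 20.5 to 52.3 CPM and to 117 and 647 CPM, so both sums were higher in SF brains with no overlap. Most of the fat body sum was *Vg*, at 8094 and 8988 CPM in these SF brains, and no other fat body marker passed the test. The part of these differences in the level of *LOC411704* was not tested. The intervals allow SE values that are lower or slightly higher than those of SF in both tissues.

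In brains the libraries fell into a low and a high set that did not follow the treatments alone. The V brains C20, C49, C64, C68 and C77 held 42.3, 46.0, 23.8, 24.02 and 21.9 CPM (31.6 ± 11.6, SD, n = 5). The HS brains H51, H53, H73, H74 and H75 held 28.99, 25.3, 22.4, 23.3 and 24.2 CPM (24.9 ± 2.55, SD, n = 5). All HS brains were low, and C20 and C49 were above all of them.

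The SF brains SP1, SP16 and SP76 held 46.1, 21.7 and 45.8 CPM (37.9 ± 14.0, SD, n = 3). The SE brains S24, S27, S29, S38 and S83 held 40.7, 44.4, 45.2, 35.9 and 21.5 CPM (37.5 ± 9.68, SD, n = 5). SP16 and S83, which the study left out, were the lowest brains of the series, and the other 6 SF and SE brains were all above every HS brain. As compared to HS brains, the log2 fold change was 0.90 (SE 0.11, 1.87-fold) for SF and 0.75 (SE 0.09, 1.68-fold) for SE over the 11 kept libraries, again as a description, with 7.93% and 1.24% of all genes called. With SP16 and S83 included the values were 0.62 and 0.60.

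Over all 18 brains no injected group passed the test against V, although the injected libraries other than SP16 and S83 took part in choosing the gene. The log2 fold changes were −0.35 (SE 0.26, 95% interval −0.89 to 0.19, adjusted p = 0.835) for HS, 0.27 (SE 0.29, interval −0.35 to 0.88, adjusted p = 0.925) for SF and 0.25 (SE 0.25, interval −0.28 to 0.78, adjusted p = 0.850) for SE. In these comparisons 0% of genes were called with edgeR, and 522, 364 and 670 genes had an unadjusted p under 0.05. The V brains themselves ran from 21.9 to 46.0 CPM, and each interval is wide enough to hold a change as large as that of 0.75 between SE and HS brains.

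The low and high V brains differed in the share of unaligned reads, which was 25.1% and 34.3% in C49 and C20 and 4.24% to 5.37% in the other 3 V brains. All 5 brains with a share under 20% were low (22.6 ± 1.23 CPM, SD, n = 5), whether V, SF or SE. Among the 13 brains with a share over 20%, the V brains averaged 44.2 ± 2.61 CPM (SD, n = 2), the SF brains 45.9 ± 0.233 (SD, n = 2), the SE brains 41.5 ± 4.27 (SD, n = 4) and the HS brains 24.9 ± 2.55 (SD, n = 5). The highest share was 53.6%, in the HS brain H51, which held 28.99 CPM. Pearson's r between the level and the share was 0.603 over the 18 brains, 0.539 over the 13 injected brains and 0.601 over the 20 fat bodies, given as descriptions, since libraries of a treatment share their history. The 5 fat body markers summed to 1805 to 10834 CPM in V and 995 to 7677 CPM in HS brains. In SP16 they summed to 3690 CPM and in S83 to 10159 CPM, far above the 329 to 1136 CPM of the other SE brains. Most of each sum was *Vg*, with 3644 CPM in SP16 and 10108 CPM in S83. The hexamerins had group means of at most 28.73 CPM in brains, so these sums describe *Vg* rather than all 5 markers. The part of these markers in the level of *LOC411704* was not tested.

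**Figure D2:**
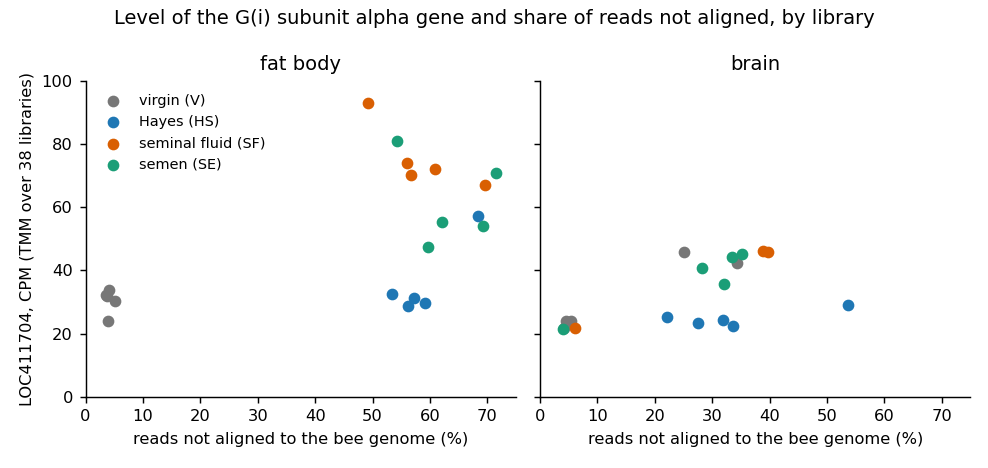
CPM of *LOC411704* (vertical axis) against the percentage of unaligned reads (horizontal axis), 1 point per library, coloured by treatment. The 5 brains under 20% sat between 21.5 and 24.02 CPM, and above 20% the HS brains stayed between 22.4 and 28.99 CPM while V, SF and SE brains sat between 35.9 and 46.1 CPM.

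The 13 brains over 20% were also fitted alone, a choice made after the values were seen. The low HS brains took part in choosing the gene, so these values are given as a description with no test. HS brains were lower than the V brains C20 and C49 by 0.84 on the log2 scale (SE 0.10), and the 7 leave-one-out fits gave −0.90 to −0.76. SF and SE brains differed from these V brains by 0.06 (SE 0.13) and −0.10 (SE 0.11). The share of all genes called in these fits was 1.22% for HS, 0.0885% for SF and 1.19% for SE. Over all 18 brains with the share of unaligned reads as a covariate, the log2 fold changes against V were −0.87 for HS, −0.12 for SF and −0.11 for SE. With this covariate HS passed the test (SE 0.09, adjusted p = 7.21e-05, edgeR), while SF and SE did not. The same HS brains took part in choosing the gene, and without the covariate HS did not pass.

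The level was then compared between the tissues of the same treatment, a contrast that did not choose the gene. The injected libraries other than the low brains SP16 and S83 had taken part in that choice, and the V libraries had not. In V queens brain and fat body differed by 0.05 on the log2 scale (SE 0.22, 95% interval −0.39 to 0.50, adjusted p = 0.826). Brains were below fat bodies in all injected groups, with log2 differences of −0.53 in HS (SE 0.23, adjusted p = 0.0310), −0.998 in SF (SE 0.26, adjusted p = 0.000976) and −0.72 in SE queens (SE 0.22, adjusted p = 0.00394). Most genes differ between these tissues, and the share called was 81.1% for V, 82% for HS, 77.4% for SF and 81.8% for SE queens, so a call is close to the rule here and the V result is the less common one.

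The tissue differences depend on scaling, and TMM factors differed between brains and fat bodies by 0.36 to 0.45 on the log2 scale. With library sizes alone the difference became 0.50 in V (adjusted p = 0.0323), −0.18 in HS (adjusted p = 0.456) and −0.29 in SE queens (adjusted p = 0.221). The HS call was also lost without the brain library H73 (adjusted p = 0.0601), the brain library H74 (0.0557) or the fat body library H74 (log2 fold change −0.30, adjusted p = 0.215), and with the queen as a block (−0.49, adjusted p = 0.0535). With that block the V queens were at −0.01.

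Some queens were high in 1 tissue and low in the other. SP16 had the highest fat body value of the series, 93.0 CPM, and 21.7 CPM in the brain. S83 held 55.2 CPM in the fat body and 21.5 CPM in the brain, and H74 held 57.1 and 23.3 CPM. The V queens C20 and C49 showed the opposite order, with 33.8 and 30.3 CPM in the fat body and 42.3 and 46.0 CPM in the brain. The exact paired permutation test over log2 values gave p = 1 in V, 0.125 in HS (n = 5 queens each), 0.25 in SF (n = 3, the smallest possible) and 0.0625 in SE queens (n = 5, the smallest possible).

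**Figure D3:**
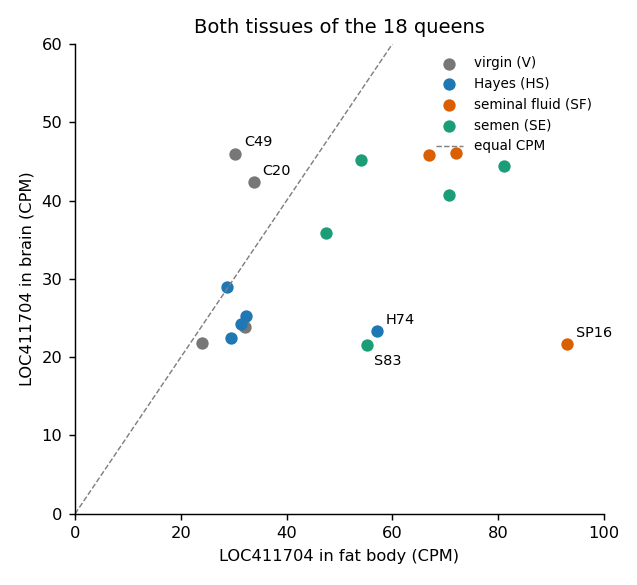
CPM of *LOC411704* in the brain (vertical axis) against the fat body (horizontal axis) of the 18 queens with both tissues, coloured by treatment, with the line of equal CPM. SP16, S83 and H74 lay far to the right at 21.5 to 23.3 CPM in the brain, and C20 and C49 lay above the line.

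Whether the tissues responded differently was tested with an interaction term over all 38 libraries, added after the values were seen. The injected libraries other than SP16 and S83 took part in choosing the gene, and the fit had no term for the queen. The queen as a block was not run for the interactions. The change from V to SF was smaller in brains than in fat bodies by 1.05 on the log2 scale (SE 0.34, adjusted p = 0.0474, 9.09% of genes called). Of 18 leave-one-out fits 7 kept this call, and without the brain SP16 the value was −0.77 (adjusted p = 0.146). The interaction was −0.77 for SE (SE 0.31, adjusted p = 0.0874, 16.7% of genes called) and −0.59 for HS (SE 0.32, adjusted p = 0.338, 1.97% of genes called).

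**Figure D4:**
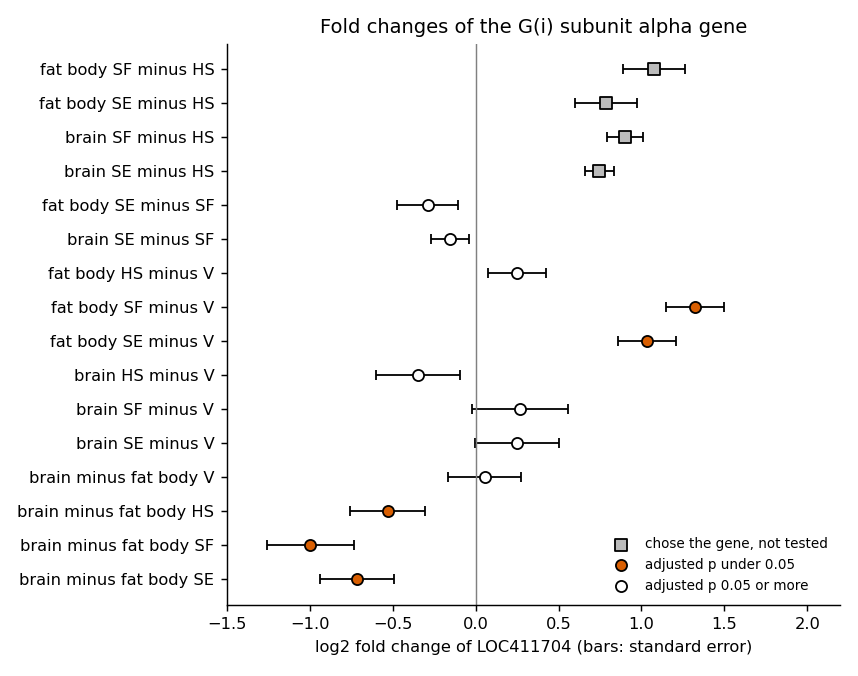
Log2 fold change of *LOC411704* (horizontal axis) with its standard error in each comparison. Grey squares chose the gene and were not tested, filled circles passed the test and open circles did not. SF and SE fat bodies stood 1.32 and 1.03 above V fat bodies, while the 3 brain values against V lay between −0.35 and 0.27.

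Ordered by mean level on the common scale, the groups ran from SF fat bodies (75.3 CPM) and SE fat bodies (61.7) to SF brains (37.9), SE brains (37.5), HS fat bodies (35.8), V brains (31.6), V fat bodies (30.4) and HS brains (24.9). Of the 7 gaps between neighbours in this order, 2 exceeded the larger SD of the pair. They were the gap from SE fat bodies to SF brains (23.8 CPM against an SD of 14.0) and that from V fat bodies to HS brains (5.53 against 3.81). Without TMM scaling the group means ran from 63.3 CPM in SF fat bodies to 25.9 CPM in V fat bodies, with HS brains at 28.8 CPM.

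The other genes of G protein signalling followed a list of 20 receptors and effectors with standard symbols in the RefSeq annotation. The beta and gamma subunits and the other alpha subunits were not on it, because the annotation used here gives no descriptions by which to find them. In fat bodies 13 of the 20 were tested among injected queens and 14 with V queens added, and in brains 19 were tested.

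Of the amine receptors listed, the dopamine receptor *Dop3*, the serotonin receptor *5-HT1* and the tyramine receptor *TyrR* are known to lower cyclic AMP. They are thus taken to act through the Gi class, and the sex peptide receptor, given below, was not counted among them. None of these amine receptors passed the test in any treatment comparison. *5-HT1* was at 0.71 (adjusted p = 0.138) and 0.26 (adjusted p = 0.570) on the log2 scale for SF and SE as compared to HS fat bodies, and at −0.13 and −0.18 in brains. *Dop3* and *TyrR* had too few reads in fat bodies to be tested, with group means of at most 0.215 CPM, and their brain values as compared to HS lay between −0.54 and −0.34.

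The receptors that raise cyclic AMP (*Dop1*, *DopR2* and *5-ht7*) and those that act through calcium (*Oa1*, *5-HT2alpha* and *5-HT2beta*) did not pass the test in any treatment comparison either. *LOC724225*, which the study names as the sex peptide receptor, had means of 2.70 to 2.96 CPM in brains and 0.605 to 0.983 CPM in fat bodies, where it fell under the count filter. In brains its log2 fold change was 0.09 for SF (adjusted p = 0.833) and 0.19 for SE (adjusted p = 0.467) as compared to HS queens.

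As compared to HS fat bodies, 1 of the 13 tested genes fell in SF queens and the same 1 in SE queens, beside 0.817% and 2.21% of all genes called lower. None rose, beside 0.841% and 1.49% of all genes called higher. The gene that fell was *Crzr*, the receptor of the peptide corazonin, which the study itself picked out in these libraries. Its mean was 101 CPM in V, 79.0 in HS, 16.5 in SF and 24.8 CPM in SE fat bodies, and its log2 fold change was −2.24 (SE 0.21, adjusted p = 8.63e-05) for SF and −1.67 (SE 0.21, adjusted p = 0.000696) for SE against HS. The median log2 fold change of the list was −0.04 for SF and −0.10 for SE, beside 0.0046 and 0.02 over all tested genes.

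As compared to V fat bodies, 2 of the 14 tested genes fell in SF queens (*Crzr* and the glutamate receptor *mGlutR1*) and none rose, beside 14.5% of all genes lower and 13.6% higher. In SE queens 5 fell and 1 rose, beside 17.1% and 16.3% of all genes. Those that fell were *Crzr* (−2.03 on the log2 scale), the SIFamide receptor *SIFR* (−0.74), *mGlutR1* (−0.73), the protein kinase *Pkc* (−0.54) and *Ac3* (−0.49), an adenylate cyclase and so of the enzyme family that Gi subunits inhibit. The opsin *Lop1* rose by 1.33, at 1.02 CPM in V and 2.57 CPM in SE fat bodies. In HS queens 1 gene fell, *SIFR* (−0.73, adjusted p = 0.0409), beside 4.18% of all genes, a call that was lost in 7 of 10 leave-one-out fits.

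In brains 1 of the 19 genes rose in SF as compared to HS queens, beside 4.47% of all genes higher. This was *Akhr*, the receptor of adipokinetic hormone, at 2.06 on the log2 scale (SE 0.49, adjusted p = 0.0327, edgeR). The 2 SF brains in this fit held 7.81 and 12.9 CPM, the left-out SP16 1.08 CPM and the HS brains 1.08 to 6.07 CPM. The call was lost when SP16 and S83 were included and in 5 of 7 leave-one-out fits. *Akhr* was lower in SE than in SF brains (−2.67, SE 0.52, adjusted p = 0.0442), the only gene of the list called there, beside 1.81% of all genes called lower. *Akhr* was far higher in fat bodies, with group means of 72.5 to 86.6 CPM beside 2.15 to 7.26 CPM in brains. The muscle marker *TpnCIIa*, also higher in fat bodies, moved with it, at 1.37 (SE 0.27, adjusted p = 0.0174) for SF as compared to HS brains and lower in SE than in SF brains, as was the fat body marker *Vg*. Their part in the values of *Akhr* was not tested. No gene of the list passed the test for SE as compared to HS brains or for any injected group against V brains. Between the tissues of V queens, 17 of the 19 genes were higher in brains and 2 (*Akhr* and *Crzr*) in fat bodies, beside 42.5% and 38.6% of all genes. *LOC411704* itself did not pass the test there, at 0.05 with TMM, and was higher in brains by 0.50 with library sizes alone.

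The 5 genes whose log2 CPM was most like that of *LOC411704* were found among 8263 genes tested in both tissues, by the smaller of Pearson's r over the 20 fat bodies and the 18 brains. They were *LOC412799* (r = 0.901 in fat bodies and 0.945 in brains), *LOC107964419* (0.896 and 0.896), *Arp1* (0.896 and 0.927), *LOC410515* (0.886 and 0.889) and *LOC412617* (0.881 and 0.931). *Arp1* is an actin related protein gene by its symbol, *LOC412617* is named as thyroid receptor-interacting protein 6-like by the study, and the other 3 go by their identifiers here. The libraries of a tissue share their treatment and their share of unaligned reads, so these values are descriptions of likeness across the same libraries.

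These genes were picked by likeness over the same libraries, so a like split in the libraries that stood apart follows in part from the pick. The values there are given as a description. In *LOC410515* the brains C20 and C49 held 45.3 and 25.6 CPM, the 3 other V brains 3.28 to 4.48 CPM, and SP16 and S83 3.62 and 3.22 CPM. Its HS brains held 2.78 to 6.74 CPM and the 6 other SF and SE brains 10.8 to 38.4 CPM, the same split as in *LOC411704*. In *LOC412799* the fat body H74 held 529 CPM and the other 4 HS fat bodies 290 to 362 CPM, so that H74 was again the highest HS library. *Arp1* also had its highest HS fat body value in H74, 2762 CPM, beside 1448 to 1894 CPM in the other 4.

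**Figure D5:**
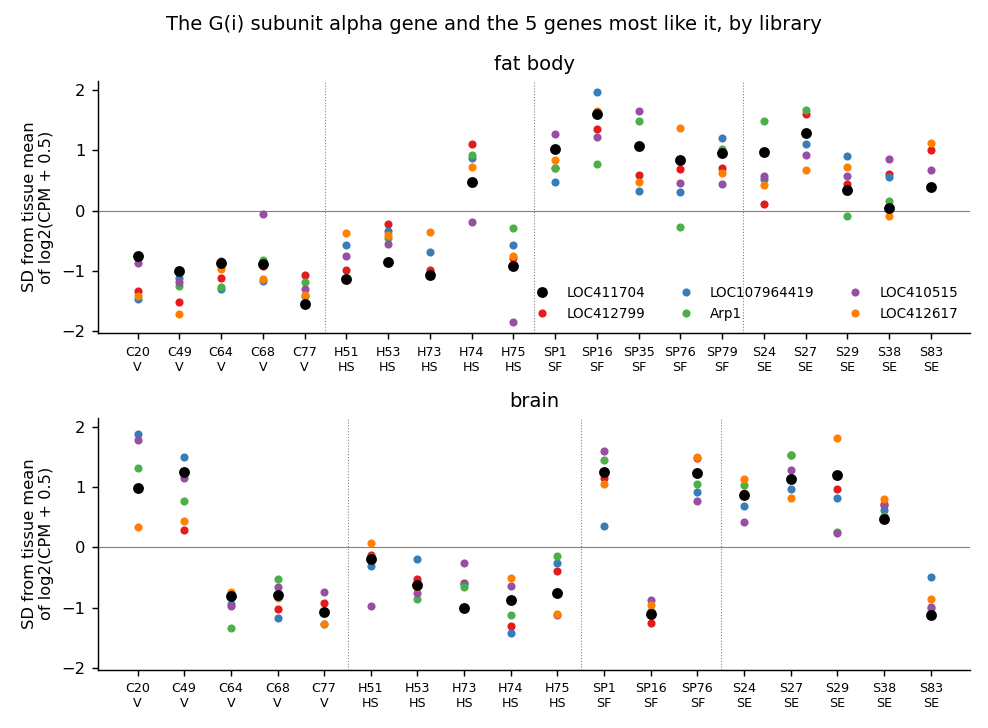
Log2(CPM + 0.5) of *LOC411704* (black) and of the 5 genes most like it, as SD from each gene's mean over the libraries of a tissue (vertical axis), by queen and treatment (horizontal axis). The 5 genes were picked by likeness over these same libraries. All 6 genes were above the mean in the V brains C20 and C49 and below it in the V brains C64, C68 and C77 and in SP16 and S83, and 5 of the 6 were above the mean in the HS fat body H74.

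Of 3 genes that the study lists beside *LOC411704* for both tissues, 2 had a like split of the brains. The integrin alpha-8-like gene *LOC107964400* held 25.5 and 15.9 CPM in C20 and C49, 6.31 to 7.79 CPM in HS brains, and 8.18 and 6.15 CPM in SP16 and S83. Its V brains C64, C68 and C77 held 10.8, 8.10 and 9.21 CPM, above all HS brains but closer to them than to C49. The papilin gene *LOC413021* ran the other way, with 85.6 and 122 CPM in C20 and C49 and 300 to 431 CPM in HS brains. C64, C68 and C77 held 380, 430 and 265 CPM of it, and SP16 and S83 413 and 273 CPM. The third, *LOC102655893*, did not have this split. Its brains C64, C68, C77, SP16 and S83 (4.230 to 4.504 CPM) lay above all HS brains (2.44 to 3.52 CPM). They were closer to the SE brain S27 (4.79 CPM) than to any HS brain.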

How the data were processed

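The authors trimmed single-end reads with cutadapt 1.8.3, aligned them to Amel_HAv3.1 and to the DWV genome with HISAT2 2.1.0, and deposited raw read counts per gene from HTSeq 0.9.1, counted over gene features without normalization. The 5 closing rows of that table name no gene (6.99% to 25.6% of a library beside the unaligned reads) and were kept out of library sizes. All 12332 genes matched the RefSeq table.

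Each library was placed by its label. The tests used edgeR 4.0.16 under R 4.3.3 (filterByExpr at a minimum count of 20, TMM, quasi-likelihood test, Benjamini-Hochberg over all tested genes, threshold 0.05). Fits held 15 injected fat bodies, 11 injected brains (S83 and SP16 left out as in the study), 20 fat bodies, 18 brains or all 38 libraries. *LOC411704* was tested in 12 comparisons of groups and in 3 interactions, which were added after its values were seen. Its 3 fits over 13 brains, also added then, are given without a test. Single values were also compared by exact two-sided permutation of log2(CPM + 0.5). Queens were taken as the replicates within a tissue, and the main fit over all 38 libraries held no term for the queen.

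Alternatives were DESeq2 1.42.0, limma-voom (limma 3.58.1), median-of-ratios factors, library sizes alone, no count filter, lane or unaligned share as a covariate, the queen as a block (tissue differences only), and each library left out. The gene, the lists and the tests were chosen with earlier results of these data known. The named genes are *LOC411704*, the signalling list with its called members and *LOC724225*, the 5 genes most like it, its neighbours and genes the study lists beside it. The signalling and marker lists were made from gene symbols after the counts were seen, since the planned match by gene description could not be made, so sperm markers were not analysed here. The analysis was tested on simulated data. Brain and fat body of a queen come from 1 animal. Over 18 queens their deviations from the group means correlated at −0.165 to 0.225 (median 0.0834). Among fat bodies of the same treatment only, 10 brains correlated best with that of their own queen. With so few candidates for each brain, some of these matches can arise by chance. Of 73 pairs of replicates none was a copy of another (lowest chi-squared per degree of freedom 16.3). SDs give the spread between libraries, and standard errors give the precision of an estimated log2 fold change. Gene sequences, DWV percentages, behaviour and qPCR were not analysed here.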

Additional observations from a re-analysis of the deposited data

Results flagged for a closer look

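The HS fat body H74 held 57.1 CPM of *LOC411704*, and its gap to the next HS fat body was 0.869 of the range of the group. Its brain held 23.3 CPM. It had 594 reads of the gene and the highest share of reads not aligned among HS fat bodies (68.4%).

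The SF fat body SP16 held 93.0 CPM, and its gap to the next SF fat body was 0.735 of the range of the group. The brain of the same queen held 21.7 CPM. Chance alone marks about 1 in 20 groups in this way, and 7 groups of 4 to 10 libraries were examined.

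The change from V to SF differed between tissues, by −1.05 on the log2 scale in brain relative to fat body (SE 0.34, adjusted p = 0.0474, edgeR, n = 5 V and 3 SF brains and 5 and 5 fat bodies). This fit was added after the values were seen and had no term for the queen. Its SF libraries other than the brain SP16 took part in choosing the gene, and without SP16 the call was lost (adjusted p = 0.146, edgeR). All 5 SF fat bodies were above all 5 V fat bodies, whereas in brains SP1 was above all 5 V libraries, SP76 above 4 of them and SP16 below all 5.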

How the results depend on the processing

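In fat bodies the differences of SF and SE from V kept their direction under every alternative run (0.87 to 1.33 and 0.56 to 1.08) and were called in all of them but 1, the share of unaligned reads as a covariate, with 0.87 for SF, 0.56 for SE and −0.22 for HS. In brains that covariate put HS at −0.87, SF at −0.12 and SE at −0.11 against V. HS then passed the test (adjusted p = 7.21e-05, edgeR), but these HS brains took part in choosing the gene. Without the covariate HS did not pass (adjusted p = 0.835, edgeR). The 13 brains over 20% gave −0.84 for HS and −0.10 for SE. The brain SE minus SF and fat body SE minus SF values kept their direction and missed the threshold throughout. The 4 descriptive values against HS kept their direction, from 0.60 to 1.11 outside the leave-one-out fits.

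Between tissues, library sizes alone gave 0.50 in V, −0.18 in HS and −0.29 in SE queens, and limma-voom gave −0.019 in V and −0.50 in HS queens. The replicate block by queen gave −0.0081 in V and −0.49 in HS queens and changed no other call. The exact paired test gave −0.0064 (V), −0.47 (HS), −1.09 (SF) and −0.73 (SE), none past the threshold, at sizes that cannot reach it. Leaving out each library gave −0.12 to 0.16 in V queens, reversed without the brains C20 (−0.07) and C49 (−0.12) and the fat body C77 (−0.02), and −0.60 to −0.30 in HS queens. The interaction for SF was −1.04 with median-of-ratios factors (adjusted p = 0.0502), −1.05 without a count filter (0.0505), −0.77 without SP16 and S83 (0.109), and −1.22 to −0.77 without single libraries.

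Of the signalling list, DESeq2 called 2 genes for SF as compared to HS brains and 2 for HS against V fat bodies, in place of 1 each. With SP16 and S83 included the first count was 0. The lane as a covariate gave 0 and library sizes alone 0 for HS, and the lane 4 in place of 2 for SF against V fat bodies. Leaving out single libraries gave 0 to 1, 0 to 2 and 2 to 5 calls in these 3 comparisons. For SE against V fat bodies it gave 6 to 8.

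Each injected fat body held fewer reads on genes than any V fat body, so their values are less precise. *LOC411704* had at least 224 reads in every library, whereas *Dop3*, *TyrR* and *LOC724225* had too few in fat bodies to be tested. TMM factors differed by at most 0.12 on the log2 scale between treatments of a tissue, in SE as compared to SF brains, and by 0.36 to 0.45 between tissues.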
